A study of Xenopus laevis with 20 samples.

Results

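Sites where β-catenin and Smad1 peaks coincided but no explant p300 peak was listed made up 1301 of the 16303 β-catenin peaks (7.98%) from Xenopus laevis gut explants. They were chosen by the overlap of deposited peaks, being β-catenin peaks that share at least 1 bp with a whole-embryo Smad1 peak and none with an explant p300 peak. The overlaps with Smad1 and with explant p300 are therefore a description of how the sites were found and not a result. Overlap with the whole-embryo p300 list took no part in the choice.

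The embryos were wild type and were collected at Nieuwkoop-Faber stage 20. β-catenin and p300 had been profiled by ChIP-seq in foregut explants and in hindgut explants, each with 60 μM BIO, an inhibitor of the kinase GSK3 that activates Wnt signalling, or with DMSO, its solvent, from stage 12. That gave 4 ChIP libraries for each of these antibodies, and each has been pooled into 1 list of peaks by the peak names, so that neither gut region nor BIO can be compared. Smad1 and p300 had been profiled in whole embryos, which hold the gut and all other tissues, with 1 ChIP library each and no treatment in the labels. The antibody of the Smad1 library is labelled Smad, whereas its peak names read pSmad1 and call the list pooled. Each list is a single call set without a replicate list, peaks are not replicates, and read depth is unknown. The intervals below are 95% intervals for counting error alone, and no test across samples was possible.

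β-catenin is the nuclear effector of canonical Wnt signalling and is brought to DNA by factors of the TCF/LEF family. Smad1 is phosphorylated by BMP receptors and binds DNA together with Smad4. p300 is a histone acetyltransferase that many transcription factors recruit, and its occupancy is widely used to locate active enhancers. In vertebrate embryos, Wnt and BMP signals both take part in the patterning of the developing gut tube.

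The lists give no gene names, and the sources used here do not name the genome build of their positions. Sites are named by their position alone, counted from 1, and no sequence is shown. Fold enrichment is the authors' ratio of ChIP signal over local background at a peak, and the score is 10 times the −log10 p-value, or of the −log10 q-value in the whole-embryo p300 list. Both are the authors' values for each peak.

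Whole-embryo p300, whose list took no part in the choice, was present at 183 of the 1301 peaks (14.1%, exact interval 12.2 to 16.1). The share over all 16303 β-catenin peaks was 12.8%, so that the 1301 peaks lay close to that background. It was 40.7% (1503 of 3690, interval 39.1 to 42.3) at joint β-catenin and Smad1 peaks that did overlap explant p300. The difference between these kinds of joint peak was −26.7 percentage points (Newcombe interval −29.1 to −24.1). It was −17.6 points when the joint peaks with explant p300 were weighted to the Smad1 scores of the 1301 peaks, a comparison added after seeing the data. At β-catenin peaks with explant p300 but no Smad1 the share was 12.6% (275 of 2175, interval 11.3 to 14.1). The 1301 peaks did not separate from these, with a difference of 1.42 points and an interval from −0.88 to 3.82. At the 9137 β-catenin peaks with neither partner, whole-embryo p300 was listed at 131 (1.43%, interval 1.20 to 1.70), 12.6 points below the 1301 peaks (difference interval 10.8 to 14.6). The whole-embryo and explant lists differ in tissue, length, peak width and threshold, and these cannot be told apart. Whole-embryo p300 is the same protein as the explant p300 that the choice left out, and whole embryos hold the gut. It is therefore not independent of the choice, and how far the choice set these differences was not tested.

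**Figure D1:**
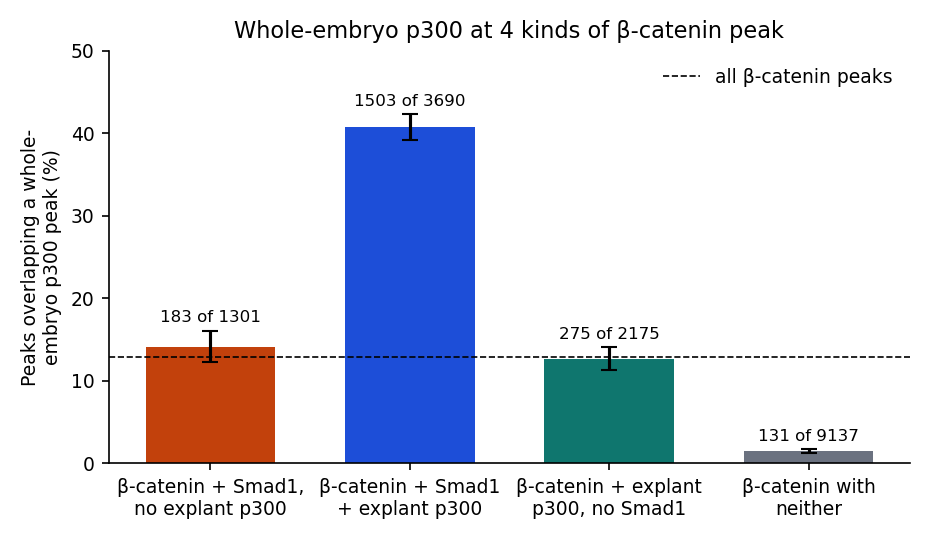
Share of β-catenin peaks (%) that overlap a whole-embryo p300 peak, by whether they overlap Smad1 and explant p300, with exact 95% intervals as bars and the share of all β-catenin peaks as a dashed line. The 1301 peaks with Smad1 and without explant p300 (14.1%) lie near the peaks with explant p300 and without Smad1 (12.6%), far below the joint peaks with explant p300 (40.7%) and above the peaks with neither (1.43%).

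Read from the Smad1 side, peaks shared with β-catenin and not with explant p300 lay below both kinds of Smad1 peak with explant p300 and above those with neither partner. Of the 1328 Smad1 peaks that overlapped β-catenin and not explant p300, 184 (13.9%, interval 12.04 to 15.8) overlapped whole-embryo p300. The share was 40.6% of the 3707 Smad1 peaks with both partners, 24.97% of the 997 with explant p300 but no β-catenin, and 8.02% of the 1944 with neither (interval 6.86 to 9.32). Over all 7976 Smad1 peaks it was 26.3%. Among Smad1 peaks without explant p300, those with β-catenin exceeded those without it by 5.83 points (interval 3.65 to 8.09). Their Smad1 signal was also higher, with a median score of 206 against 183. The part of Smad1 signal in this difference was not tested.

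Smad1 enrichment was modest at the 1301 peaks. The overlapping Smad1 peak had a median fold of 8.08 (interval 7.95 to 8.22; quartiles 7.10 and 9.94), against 9.54 (interval 9.38 to 9.70) at joint peaks with explant p300 and 8.31 over all Smad1 peaks. Only 45.6% of the 1301 peaks lay above the median of the Smad1 list, compared with 64.8% of the joint peaks with explant p300. β-catenin enrichment differed less, with a median fold of 11.9 (interval 11.6 to 12.3) at the 1301 peaks, 12.9 (interval 12.7 to 13.2) at joint peaks with explant p300 and 12.1 over all β-catenin peaks. By score the gap was wider, at 1324 against 1731. The 1301 peaks were a median of 560 bp wide, against 594 bp at joint peaks with p300 and 516 bp over the whole list. These values belong to lists that had been cut by score and are given as a description.

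**Figure D2:**
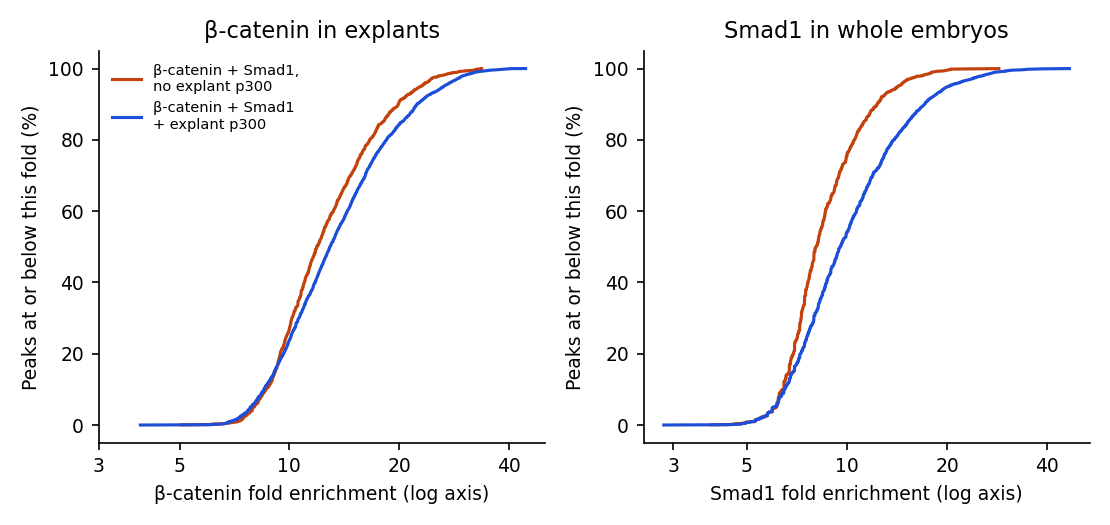
Cumulative share of peaks (%) against fold enrichment on a log axis, for β-catenin in explants on the left and for the overlapping Smad1 peak in whole embryos on the right. Joint peaks without explant p300 have lower folds than joint peaks with it, by medians of 11.9 against 12.9 for β-catenin and 8.08 against 9.54 for Smad1.

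The stronger the signal of either protein, the smaller was the part of joint peaks that lacked explant p300. When the 4991 joint peaks were put into 5 equal bins by Smad1 score, the part without explant p300 was 40.9% in the lowest bin, then 36.5%, 26.4% and 18.3%, and 8.22% in the highest. Of the 1301 peaks, 409 thus lay in the lowest bin and 82 in the highest. When all β-catenin peaks were binned by β-catenin score, the part of those with Smad1 that lacked explant p300 was 41.2% in the lowest bin and 15.8% in the highest. Among β-catenin peaks without Smad1, the part without explant p300 stayed between 79.1% and 82.1% in the same bins. Overlap with explant p300 was part of the choice and the lists had been cut by score, so that these shares are a description.

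Whole-embryo p300 at the 1301 peaks followed the Smad1 score. It was listed at 9.29% of them in the lowest Smad1 bin (interval 6.66 to 12.5), at 10.4%, 14.4% and 21.3% in the bins between, and at 36.6% in the highest (30 of 82 peaks, interval 26.2 to 47.95). Joint peaks with explant p300 were above them in every Smad1 bin, at 24.2% in the lowest and 65.9% in the highest. The difference was −14.9 points in the lowest bin (interval −19.3 to −10.4) and −29.4 points in the highest (interval −39.4 to −18.1).

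By β-catenin score the 1301 peaks showed no such order. Whole-embryo p300 was listed at between 11.5% and 16.1% of them in the 5 bins, with intervals that overlapped throughout. At joint peaks with explant p300 it went up with the β-catenin score, with 27.0% in the lowest bin and 51.7% in the highest. Against β-catenin peaks with explant p300 and no Smad1, the difference stayed within −0.09 and 3.89 points in the 5 bins, and each interval held 0. Against β-catenin peaks with neither, it was between 10.1 and 15.1 points, and each interval lay above 0. The Smad1 scores and this p300 list came from whole embryos, whereas the β-catenin scores came from explants. In the contrast between the scores, protein and tissue therefore cannot be told apart.

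**Figure D3:**
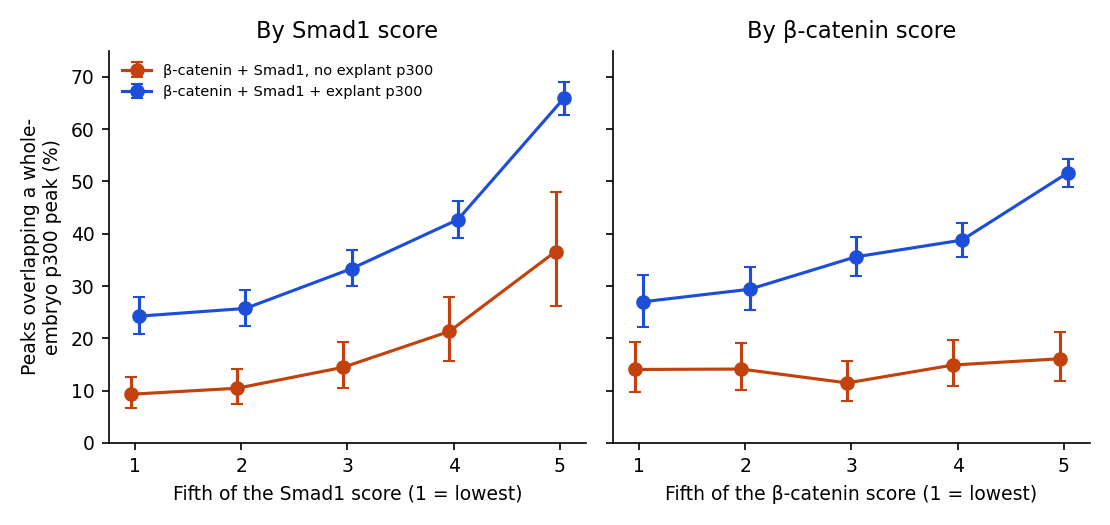
Share of joint β-catenin and Smad1 peaks (%) that overlap whole-embryo p300, in 5 bins of the Smad1 score (left) and of the β-catenin score (right), with exact 95% intervals. Peaks without explant p300 go up from 9.29% to 36.6% across the Smad1 bins and stay between 11.5% and 16.1% across the β-catenin bins, and joint peaks with explant p300 lie above them in each bin.

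The 183 peaks with whole-embryo p300 could not be separated from the other 1118 by β-catenin enrichment, with median folds of 11.8 (interval 11.02 to 12.9) and 11.9 (interval 11.6 to 12.3). Their Smad1 fold was higher, at 8.95 (interval 8.39 to 9.69) against 7.96 (interval 7.87 to 8.16). The p300 summit lay a median of 46 bp from the Smad1 summit (interval 38 to 57) and 58 bp from the β-catenin summit (interval 44 to 71). It was nearer to Smad1 at 109 sites, nearer to β-catenin at 72 and equally near at 2. The 187 whole-embryo p300 peaks found there were weak within their own list, with a median fold of 4.98 (interval 4.83 to 5.27), against 5.64 at joint peaks with explant p300 and 5.41 over all 4555. This was not particular to these sites, since the median was 4.92 (interval 4.81 to 5.03) at β-catenin peaks with neither partner. At β-catenin peaks with explant p300 and no Smad1 it was 5.32 (interval 5.03 to 5.49). Here too, Smad1 and this p300 were measured in whole embryos and β-catenin in explants, so that protein and tissue cannot be told apart.

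Summits of β-catenin and Smad1, the points of highest signal, lay near each other at the 1301 peaks. Their median distance was 30 bp (interval 28 to 32), against 25 bp (interval 24 to 26) at joint peaks with explant p300. The distance was within 50 bp at 69.6% of the 1301 peaks and within 200 bp at 95.5%. The Smad1 summit fell inside the β-catenin peak at 1300 of 1301. These sites were chosen by overlap of the same peaks, and the nearest summit was taken among overlapping Smad1 peaks. Short distances thus follow in part from the choice, and the values are a description. β-catenin was measured in explants and Smad1 in whole embryos, so that binding of both in the same cells was not tested. Each of 1293 peaks held 1 Smad1 peak and each of the other 8 held 2. No Smad1 peak was shared by 2 of the 1301 peaks. The folds of both proteins were almost unrelated across these sites (Spearman's rho 0.09 over 1301 sites), compared with a rho of 0.28 over the 3690 joint peaks with explant p300. The sites of each set share libraries, so that the coefficients are descriptions.

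Short overlaps were missing. The fewest bases that any of the 1309 pairs of β-catenin and Smad1 peaks shared was 168, and in 1043 pairs (79.7%) the shorter peak lay wholly inside the longer, while the remaining pairs overlapped in part, by no less than 49.3% of the shorter peak. The same minimum held over all 5036 pairs of the complete lists. Of pairs that did not overlap, 12 were under 100 bp apart, whereas each further 100 bp between 200 and 1000 bp held 82 to 107 pairs. When at least 50% of the shorter peak had to be shared, 1300 of the 1301 sites were kept and none was added. When summits had to lie within 200 bp instead, 1243 of the 1301 sites were kept and 56 others were added. Both alternatives applied to explant p300 as well as to Smad1. An added site may thus overlap an explant p300 peak whose summit is over 200 bp away. None of the Smad1 peaks at the 1301 sites overlapped explant p300. The choice had already left out β-catenin peaks that overlap it, so that this follows in part from the choice and is a description.

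By bases shared or distance, almost no site lay close to the limits of the choice. By score many did, since 409 of the 1301 peaks lay in the lowest Smad1 bin. Its scores were 144 to 178, and the Smad1 list ends at 144. None of the 1301 peaks shared 10 or fewer bases with Smad1, and 1 lay within 100 bp of an explant p300 peak. With Smad1, the 3 peaks that shared fewest bases had 168, 172 and 181 in common with it, at 133477862 to 133478684 and at 139625914 to 139626405 of chromosome 4L and at 42034005 to 42034364 of chromosome 4S. At the site on 4S the Smad1 peak, from 42034029 to 42034209, lay wholly inside the β-catenin peak. The 3 β-catenin peaks with neither partner that came closest to Smad1 were 52, 57 and 71 bp away from it. With explant p300, the closest of the 1301 peaks was 11 bp away, on chromosome 1L from 18343457 to 18344571. The next lay 105 bp away on chromosome 9_10S from 37186155 to 37186603, and 109 bp away on chromosome 6S from 82572438 to 82572956. No joint peak shared 10 or fewer bases with explant p300, and those that shared fewest had 183, 203 and 210 in common with it.

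Explant p300 peaks were often in the neighbourhood. The distance to the nearest one, edge to edge, had a median of 15062 bp at the 1301 peaks (quartiles 3982 and 58274), against 34877 bp at β-catenin peaks with neither partner. One was within 1 kb of 7.76% of the 1301 peaks (interval 6.37 to 9.35) and within 10 kb of 42.0% (546 peaks, interval 39.3 to 44.7). At β-catenin peaks with neither, these shares were 4.12% (interval 3.72 to 4.54) and 26.7% (interval 25.8 to 27.6). Over all β-catenin peaks, including those that overlap it, explant p300 lay within 10 kb of 54.3%. The explant p300 peak nearest to one of the 1301 peaks overlapped β-catenin in 54.1% of 1283 cases and Smad1 in 44.7%, against 38.9% and 31.0% of all 15146 explant p300 peaks. A p300 peak was counted again for each site it was nearest to. These shares were not computed for the p300 peaks nearest to β-catenin peaks with neither partner. On scaffolds without any listed explant p300 peak there were 18 of the 1301.

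**Figure D4:**
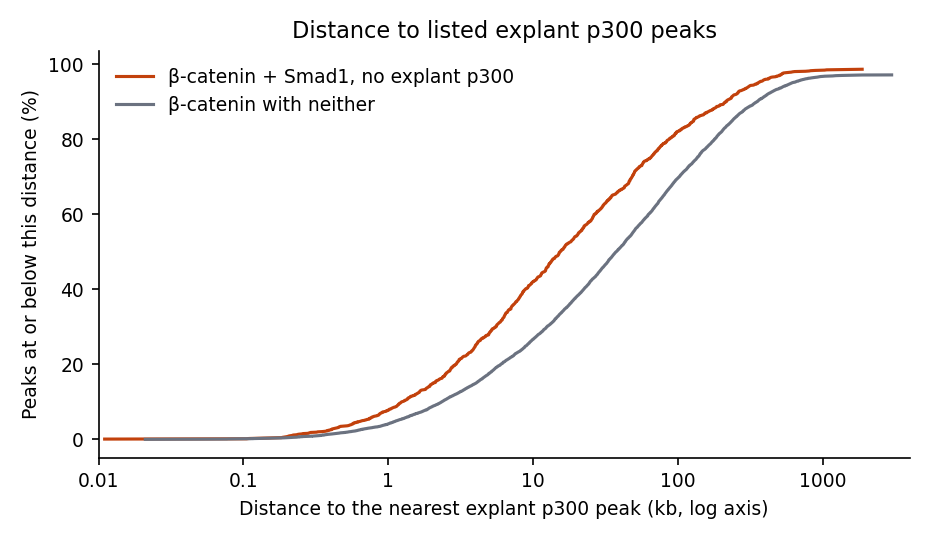
Cumulative share of peaks (%) against the distance to the nearest explant p300 peak (kb, log axis), for β-catenin peaks with Smad1 and without explant p300 and for β-catenin peaks with neither. The curve of the joint peaks lies to the left, with 42.0% against 26.7% within 10 kb.

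The explant p300 list may hold only part of the peaks first called. It holds 15146 peaks, whereas the numbers in its peak names run to 96602 and follow genome order. The same was seen in the β-catenin list (16303 peaks, numbers to 195449) and the Smad1 list (7976 peaks, numbers to 31255). In the whole-embryo p300 list the numbers ended at its count of 4555. Only explant p300 was examined further. Numbers skipped between its neighbouring listed peaks were read as peaks that were called there and not listed, although the sources used here do not describe the numbering. Of the 1301 peaks, 1268 lay between 2 listed explant p300 peaks, in 1078 such stretches, and each of these stretches skipped at least 1 number. A count of 0 of 1268 allows a share of up to 0.237%, taken as 3 counts of the total, and the exact interval ends at 0.290%. Of 8748 β-catenin peaks with neither partner, in 4991 stretches, 67 (0.766%, interval 0.594 to 0.972) lay in a stretch with no skipped number. Peaks in the same stretch share its outcome, so that these limits, which count each peak separately, are too narrow. Counted by stretch and not by peak, 2788 of the 8879 stretches (31.4%) with neither a β-catenin nor a Smad1 peak skipped none, but many of these were short.

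Stretches were also compared within 6 ranges of length, and the mean was highest for those with 1 of the 1301 peaks in each range, without a test. The medians did not keep this order. From the shortest range to the longest they were 1, 2, 2, 4, 4.5 and 8 with 1 of the 1301 peaks. With 1 β-catenin peak with neither partner they were 1, 2, 2, 3, 5 and 8. Lengths were not matched within a range. A stretch counted as holding a peak only when the whole peak fitted inside it, whereas stretches without a peak could be shorter. Stretches of up to 5 kb with 1 of the 1301 peaks and no other β-catenin or Smad1 peak skipped 1.58 ± 0.77 numbers (SD, n = 19 stretches). Those with 1 β-catenin peak with neither partner skipped 1.23 ± 0.74 (n = 88), and those with no such peak 0.377 ± 0.665 (n = 2701). Between 10 and 20 kb the means were 2.80 ± 1.15, 2.71 ± 1.68 and 1.83 ± 1.52. Over all lengths, 0 of 298 stretches with 1 of the 1301 peaks skipped no number, against 58 of 2398 (2.42%) with 1 β-catenin peak with neither partner. Up to 5 kb these were 0 of 19 and 10 of 88 (11.4%). Of the 20 shortest stretches with 1 of the 1301 peaks, all at most 5.05 kb long, 11 skipped 1 number, 6 skipped 2 and 3 skipped 3. The numbers do not say where in a stretch an unlisted peak lay, nor how strong it was.

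**Figure D5:**
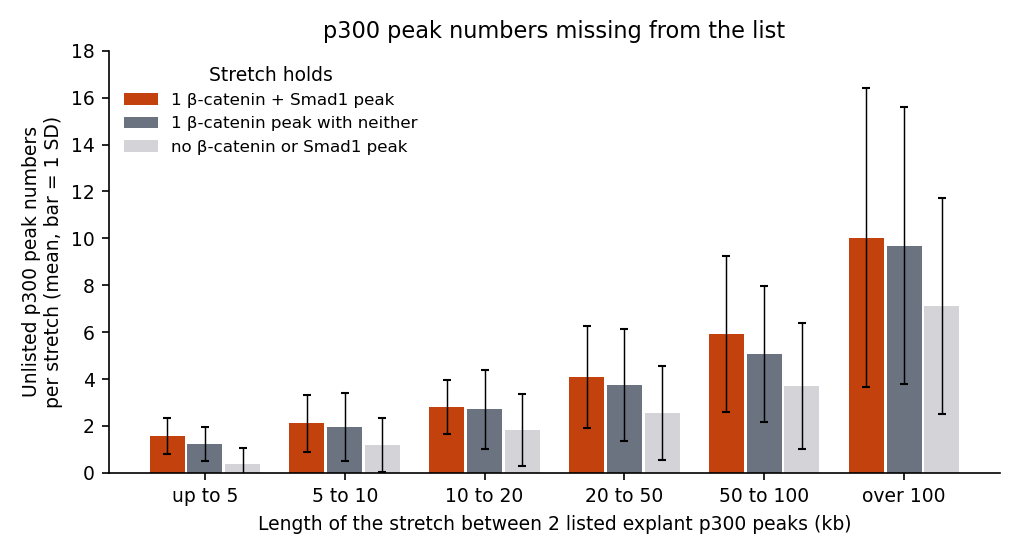
Mean number of explant p300 peak numbers skipped per stretch between neighbouring listed p300 peaks, by length of the stretch (kb), with 1 SD between stretches as bars. Up to 5 kb the mean is 1.58 for stretches with 1 joint β-catenin and Smad1 peak. It is 1.23 for those with 1 β-catenin peak with neither partner and 0.377 for those with no β-catenin or Smad1 peak. The order of the means is the same in each range of length, but that of the medians is not. Between 50 and 100 kb the medians are 4.5, 5 and 3.

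Among the 10 peaks with the highest β-catenin scores, strong β-catenin went with ordinary Smad1. Their β-catenin folds were 17.6 to 33.7 and their Smad1 folds 5.81 to 11.9. The highest score belonged to chromosome 3S from 2723093 to 2723750, with 29.2-fold β-catenin and 11.9-fold Smad1 enrichment, summits 34 bp apart and the nearest explant p300 peak 60.6 kb away. On chromosome 3L from 70239851 to 70240450, β-catenin was enriched 32.5-fold and Smad1 9.94-fold, with explant p300 no nearer than 243 kb. A site on chromosome 4L from 41284034 to 41284978 was similar, at 32.2-fold and 8.62-fold, 172.6 kb from explant p300. The widest, on chromosome 1L from 18328124 to 18331799, spanned 3676 bp, and its Smad1 summit was 1999 bp from the β-catenin summit. The others lay on chromosome 2L from 148447352 to 148448773, 8L from 29032712 to 29033677 and from 96053607 to 96054454, 9_10S from 19949102 to 19950268, 3L from 35866134 to 35867117 and 1S from 141118202 to 141119868. Of the 10, only the last overlapped whole-embryo p300, at 5.68-fold. So few sites cannot be set apart from the share of 14.1% over all 1301 peaks.

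The 5 peaks with the highest Smad1 scores were different sites. On chromosome 9_10L from 13515882 to 13516722, Smad1 was enriched 28.6-fold and β-catenin 10.2-fold. On chromosome 8L from 57875224 to 57875871 the folds were 24.6 for Smad1 and 10.1 for β-catenin, and on chromosome 5L from 85654217 to 85654958 they were 20.4 and 18.6. A second site on 5L, at 141205681 to 141206286, was bound with 18.4-fold Smad1 and 10.9-fold β-catenin enrichment, and chromosome 6L from 65934980 to 65935829 had 20.4-fold and 8.44-fold. Whole-embryo p300 was listed at 4 of the 5, at folds of 4.46 to 5.16, and was missing at the second site on chromosome 5L. Its share was 14.1% over all 1301 peaks and 36.6% in their highest Smad1 bin. Explant p300 was 7.73 to 129.6 kb away.

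Whole-embryo p300 was strongest on Scaffold42 from 1476215 to 1476802, at 19.2-fold, with 24.1-fold β-catenin and 10.5-fold Smad1 enrichment. All 3 summits lay within 48 bp of the β-catenin summit, and the nearest explant p300 peak was 146.5 kb away. It was next strongest on chromosome 3S from 75703843 to 75704260 (11.1-fold, with 15.3-fold β-catenin and 19.3-fold Smad1) and on chromosome 4S from 104791084 to 104791563 (9.11-fold, with 15.9-fold and 11.4-fold). At 195236633 to 195237161 of chromosome 1L there was 8.30-fold p300 with low β-catenin (8.07-fold) and Smad1 (5.96-fold). On chromosome 7L from 21828613 to 21829629 p300 was at 8.16-fold beside 27.9-fold β-catenin.

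Some of the 1301 peaks lay far from any listed explant p300 peak. The farthest on a named chromosome, on 2L from 130292198 to 130292687, was 1877 kb from the nearest listed explant p300 peak and had 23.4-fold β-catenin and 9.28-fold Smad1 enrichment with summits 9 bp apart. The next lay on 2S from 144055810 to 144056300 (1430 kb), 4L from 62417875 to 62418482 (1067 kb), 5L from 3807600 to 3808087 (1033 kb) and 3S from 91756936 to 91757450 (893.7 kb). None of these 5 overlapped whole-embryo p300, but 5 sites are too few to set apart from the share of 14.1% over all 1301 peaks.

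Most of the 1301 peaks had no other of them within 10 kb. Chains of peaks at most 10 kb apart held 182 of them (14.0%) in 81 chains, of which 66 were pairs, and 1119 had no other within that distance. The same share was not computed for other β-catenin peaks, so that it cannot be called high or low. The longest chain held 5 peaks in 21.2 kb on chromosome 7S from 67882019 to 67903254, with β-catenin folds of 10.7 to 19.1 and Smad1 folds of 6.96 to 11.3. A chain of 4 on chromosome 1L from 18328124 to 18346805 took in the 3676 bp peak and the peak 11 bp from explant p300. The other chains of 4 lay on chromosome 2L from 148374938 to 148394684 and on chromosome 7L from 93747770 to 93752337. No peak of these 4 chains overlapped whole-embryo p300, against a share of 14.1% over all 1301 peaks. Peaks of a chain are not independent, and a difference from that share was not tested.

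The sites were spread over all chromosomes. Xenopus laevis is allotetraploid, with a pair of subgenomes named L and S. Of the 1238 peaks on named chromosomes, 717 (57.9%, interval 55.1 to 60.7) lay on L chromosomes, against 59.8% of all β-catenin peaks, which is within that interval. The part of joint peaks that lacked explant p300 was between 23.3% on chromosome 3L and 30.1% on chromosome 4S, and their intervals (18.8 to 28.4 and 23.7 to 37.1) overlapped. The remaining 63 peaks were on 42 unplaced scaffolds.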

How the data were processed

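The 20 samples formed 20 groups of 1 library each by their titles, 10 of them ChIP and 10 input. The 4 peak lists were used as deposited. The submitters' processing notes name MACS2, Bowtie2, Trimmomatic, SAMtools, Picard and FastQC, with neither versions nor roles. The genome build and the settings of the peak caller were not given in the sources used here. No list has a header, and all have the layout of MACS2 narrow peaks. The names of the deposited peaks show that the β-catenin and explant p300 libraries were pooled over foregut and hindgut, DMSO and BIO. The authors' fold is a ratio over local background. The deposited score is 10 times the −log10 p-value, and in the whole-embryo p300 list 10 times the −log10 q-value. The authors' lists for β-catenin, Smad1 and explant p300 end at a −log10 p of 78.6, 14.4 and 23.1, and their titles name IDR.

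In the whole-embryo p300 list 172 repeated intervals were dropped, and 14 peaks without a summit were given their midpoint. Overlap meant at least 1 bp in common. Shares have exact (Clopper-Pearson) 95% intervals, differences Newcombe intervals and medians order-statistic intervals (Python 3.11.15, scipy 1.17.1, statsmodels 0.14.6). With 1 list per protein and tissue, no test was run. Overlaps, intervals and peak numbers were checked on lists with planted answers. A Smad1 value is that of the overlapping peak with the nearest summit.

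The sites, comparisons and rules were chosen with earlier results of these data known. Named sites are the 10 highest β-catenin scores, the 5 highest Smad1 and whole-embryo p300 scores, the 5 farthest from explant p300 on named chromosomes, the 3 chains with most peaks (4 with a tie) and the 3 nearest to each limit. Alternatives changed the overlap, the peak width, the thresholds of the lists and the scaffolds. A table of genes of another build was not used.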

Additional observations from a re-analysis of the deposited data

How the results depend on the processing

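Of 85 alternatives, 65 stayed within the interval of the value as reported, or within 1.5 times the count, 18 moved and 2 changed sign. The cause of the moves was not tested beyond the construction of each alternative. The number of sites was 698 with the higher-scoring 50% of the β-catenin list, 564 with that of the Smad1 list and 2248 with that of the explant p300 list. The share with whole-embryo p300 was 19.7% with the Smad1 50%, 17.6% with the explant p300 50% and 5.38% with the higher-scoring 50% of the whole-embryo p300 list. The difference from joint peaks with explant p300 was −29.9 points with the β-catenin 50%, −29.4 with the explant p300 50%, −18.3 with the whole-embryo p300 50%, and −17.6 when joint peaks with explant p300 were weighted to the Smad1 score of the sites, a setting chosen after seeing the data. The difference from β-catenin peaks with explant p300 and no Smad1 changed sign, to −0.94 points with the explant p300 50% (interval −3.80 to 1.81) and −0.69 with the whole-embryo p300 50% (interval −2.23 to 0.96), and all of its intervals held 0. The difference from β-catenin peaks with neither was 17.6 points with the Smad1 50%, 15.6 with the explant p300 50% and 4.95 with the whole-embryo p300 50%. The median β-catenin fold was 15.2 with the β-catenin 50%, and the median Smad1 fold 10.3 with the Smad1 50% and 8.36 with the explant p300 50%. The share within 10 kb of explant p300 was 37.1% when sites within 1 kb of it were left out, and 29.1% with the explant p300 50%. No paired analysis was possible because each group has 1 library and no test was run. Read depth is unknown, so that what each list could detect was not assessed.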
